A study of Homo sapiens with 3 samples.

Results

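The 10 genes described here belong to the BCL2 family, whose proteins set how easily a cell dies from within. BCL2, BCL2L1 and MCL1 promote survival, BAX and BAK1 form pores in the mitochondrial outer membrane, and BID, BAD, BBC3, PMAIP1 and BCL2L11 are BH3-only members that trigger death. The genes were taken by symbol, and all 10 were found among the 22497 rows that carry a gene symbol in the count tables. Survival proteins hold BAX and BAK1 in check, and BH3-only proteins block the survival proteins or act on BAX and BAK1 directly. Once the membrane is open, cytochrome c leaves the mitochondrion and caspases are switched on. In estrogen receptor positive breast cancer BCL2 is known as a gene that the receptor induces, and drugs that mimic the BH3 domain are aimed at BCL2 and its relatives.

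The study grew spheroids of CAMA-1, an established estrogen receptor positive breast cancer cell line, from 2000 plated cells and kept them for 11 days in 1 µM ribociclib, an inhibitor of CDK4 and CDK6, with DMSO also named in the treatment label. The spheroids held 100% sensitive cells that carried the fluorescent protein Venus, 100% resistant cells that carried mCherry, or 50% of each at plating. The resistant line had been made from CAMA-1 by months of growth in ribociclib. Cells were frozen and thawed before droplet capture of transcript 3′ ends. All libraries received ribociclib, so none shows untreated cells, and each condition is 1 library, so no comparison here has a test or a replicate check.

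The annotation deposited with the counts divides the cells into 4 populations: 3329 sensitive cells grown alone, 2059 sensitive cells from the coculture, 6292 resistant cells from the coculture and 7557 resistant cells grown alone. Lineage in the coculture had been read from UMIs, which are counts of distinct molecules, of the fluorescent transgenes. Values listed for all populations follow this order. The populations hold 96247731, 70896822, 199632131 and 270891547 UMIs, with medians of 27622, 34056, 30686 and 35443 per cell. Median mitochondrial shares were 20.9%, 17.3%, 15.2% and 15.4%, and the G1 phase held 89.0%, 55.3%, 49.7% and 50.0% of the cells. Several members differed by phase and by mitochondrial share, so both are given beside the comparisons.

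The sensitive, mixed and resistant libraries listed 8643, 20227 and 11502 barcodes, of which 51.9%, 30.5% and 19.0% had a mitochondrial share of 30% or more. Pairs of libraries shared 48, 34 and 60 barcode sequences. Of 7 luminal markers, KRT19 was between 2571 and 3671 CPM, EPCAM between 205.0 and 342.2 CPM and GATA3 between 350.2 and 405.9 CPM. ESR1 was lower, between 14.2 and 20.2 CPM. Of 7 markers of other cells, PTPRC, CD3E, COL1A2 and KRT5 had at most 5 UMIs in a population, COL1A1 was between 2.40 and 3.61 CPM, ACTA2 was at or below 1.26 CPM, and KRT14 was at 3.58 CPM in sensitive cells grown alone and at or below 0.711 CPM elsewhere.

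Levels are UMIs of a gene per 1000000 UMIs of the population, written CPM, with exact Poisson 95% intervals. Differences are given as log2 ratios after 1 CPM is added, and a gene is past 1.5-fold when that ratio is beyond 0.58 in either direction. A fold beside it is the ratio without the added 1, with an exact interval from the counts. All intervals cover counting error only. They leave out variation between cultures and libraries.

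In GRCh37, the survival genes lie at chr18:60790579-60987361 (BCL2), chr20:30252255-30311792 (BCL2L1) and chr1:150533371-150552214 (MCL1), all on the minus strand. BAX lies at chr19:49458072-49465055 on the plus strand, and BAK1 at chr6:33540324-33548070 on the minus strand. BID (chr22:18216904-18257536), BAD (chr11:64037302-64052176) and BBC3 (chr19:47724079-47736023) are on the minus strand, and PMAIP1 (chr18:57567228-57571537) and BCL2L11 (chr2:111876955-111926021) on the plus strand. All members except BAX and PMAIP1 overlap other annotated genes. Some lie on the same strand, such as ADAMTSL4-AS1 in MCL1, snoU13 in BCL2 and MIR3198-1 in BID, and some on the opposite strand, such as ABALON and BCL2L1-AS1 in BCL2L1, GPR137 in BAD, GGNBP1 in BAK1, MIR3191 in BBC3 and MIR4435-2HG in BCL2L11. Reads of same-strand neighbours, which BCL2, MCL1 and BID have, could be split or shared in the counting, so those levels are less certain. Opposite-strand neighbours would matter only if the counting ignored strand, which was not checked here.

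The survival members did not share a pattern. BCL2, which holds BAX inactive, was at 9.38 CPM (8.78 to 10.0), 12.8 CPM, 13.4 CPM and 13.5 CPM. The sensitive cells grown alone thus stood below the other populations, whose intervals overlapped one another. BCL2L1, which encodes BCL-XL, was at 40.9, 31.6, 33.2 and 31.0 CPM, highest in the same cells. MCL1, a short-lived survival protein, was at 60.1, 50.2, 48.9 and 41.8 CPM, with its extremes in the monocultures. In G1 cells the order was kept at the top for BCL2L1 (43.1, 36.6, 39.4 and 35.7 CPM) and for MCL1 (61.2, 51.8, 51.7 and 42.9 CPM), and BCL2 was again lowest in sensitive cells grown alone (9.28, 12.9, 12.6 and 12.9 CPM).

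Of the pore-forming members, BAX was at 82.8, 94.8, 100.3 and 112.3 CPM, with no overlap between any of the intervals. In G1 cells BAX was at 78.6, 81.8, 85.7 and 95.1 CPM, a narrower spread. BAK1 was nearly level, at 19.7, 19.6, 19.4 and 20.2 CPM.

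The BH3-only members differed from one another. BID, which caspase-8 cleaves to carry a death receptor signal to the mitochondrion, went with lineage, at 84.4 and 87.6 CPM in sensitive cells and 66.9 and 71.9 CPM in resistant cells. BAD, which binds BCL2 and BCL-XL, was at 61.5, 65.9, 62.5 and 69.1 CPM, the narrowest range of the 10 over populations and phases (1.26-fold). BBC3, the p53 target that encodes PUMA, was at 13.6, 7.88, 8.53 and 10.1 CPM, highest in sensitive cells grown alone.

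The remaining pair were scarce. PMAIP1, which encodes the MCL1 binder NOXA, was at 1.31, 2.20, 1.19 and 1.20 CPM, from 126, 156, 238 and 324 UMIs, and was highest in sensitive cells of the coculture. BCL2L11, which encodes BIM, a binder of all the main survival proteins, was at 5.18, 5.94, 4.90 and 4.16 CPM.

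**Figure D1:**
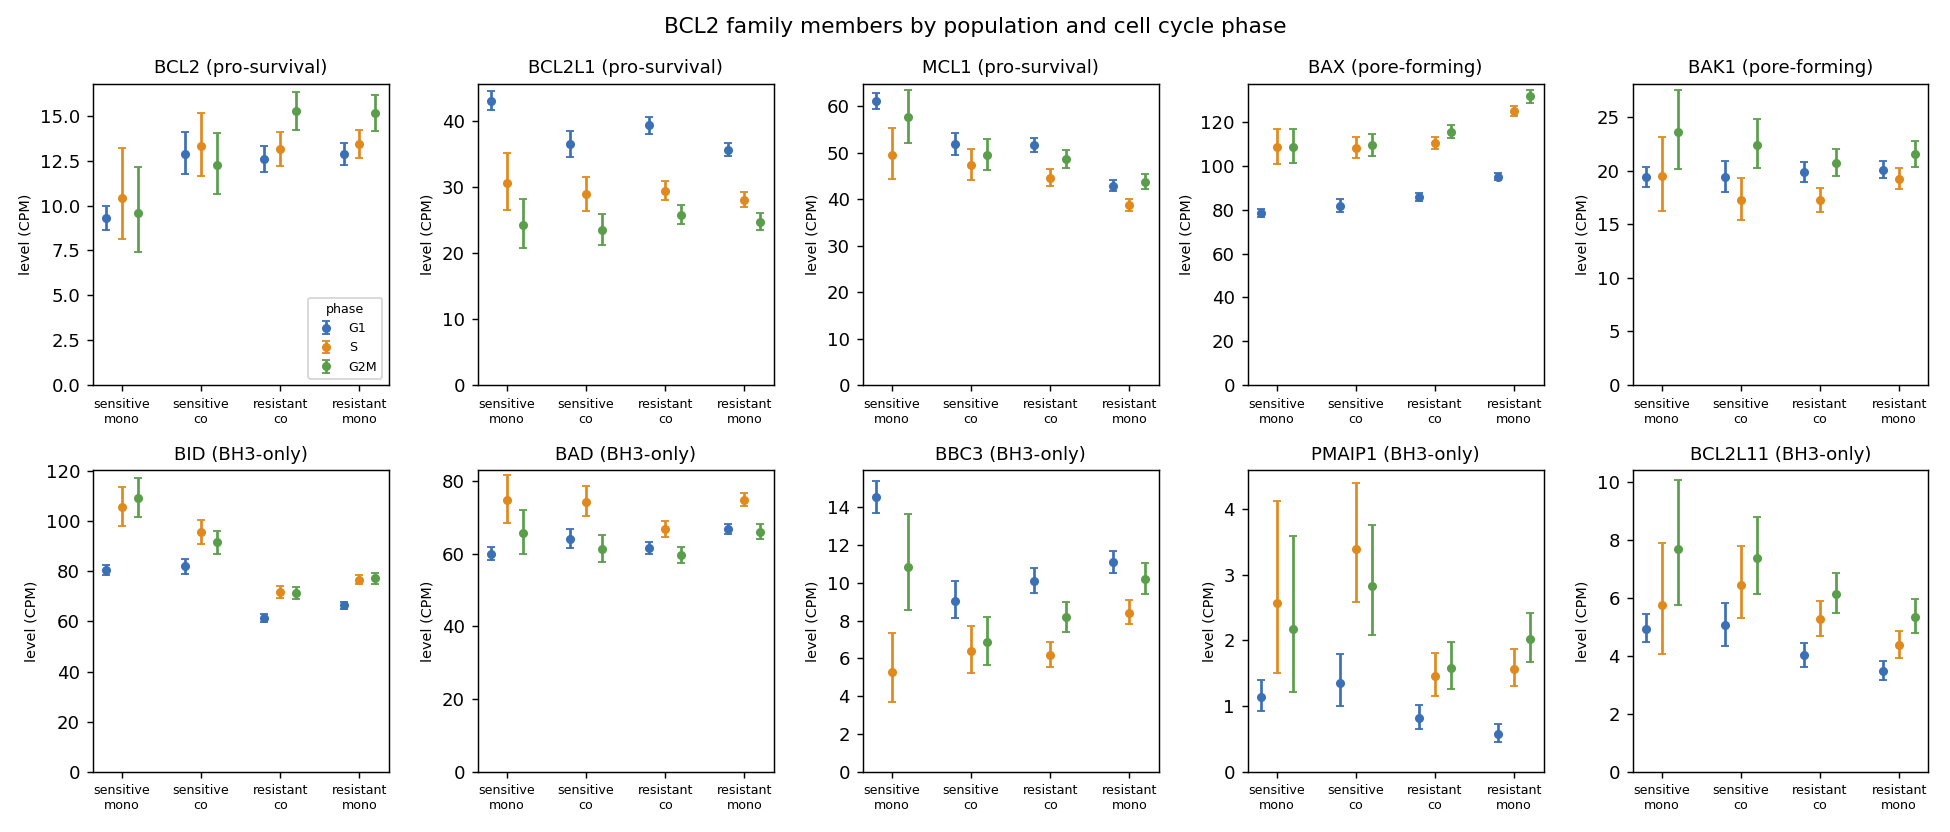
Level of each member (CPM, points with exact Poisson 95% intervals) in the 4 populations, split into G1, S and G2M cells. BBC3 is highest in G1 cells of the sensitive monoculture (14.5 CPM), and BAX is highest in G2M cells of the resistant monoculture (131.8 CPM).

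The comparison at the centre of the study is that of sensitive cells with and without resistant neighbours. BBC3 was lower in coculture by 0.72 on the log2 scale (0.579-fold, 0.523 to 0.640), from 1311 UMIs against 559, and was the 1 member of 10 past 1.5-fold. Over 12326 genes with at least 50 UMIs, 11% were past that fold and 5.91% were past it in the lower direction, so 1 of 10 is near the share of all genes. BCL2L1 (0.773-fold, 0.733 to 0.814) and MCL1 (0.835-fold, 0.801 to 0.871) were also lower in coculture. BCL2 was higher, at 1.37-fold with an interval from 1.25, and so were BAX (1.14-fold, 1.11 to 1.18) and BAD (1.07-fold, 1.03 to 1.11). PMAIP1 was 1.68-fold higher (1.32 to 2.14), but its level is close to the added 1 CPM, and its log2 ratio of 0.47 stayed inside the limit. The interval of BAK1 held 1 (0.929 to 1.07). The median log2 ratio was -0.26 for the survival members and 0.10 for the death members, beside -0.05 over all genes.

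Within G1 cells the same comparison gave BBC3 at 14.5 CPM alone and 9.06 CPM in coculture (0.624-fold, 0.551 to 0.705). It was again the 1 member past 1.5-fold, where 8.88% of genes were past it and 5.07% in the lower direction. BCL2 (1.39-fold), BCL2L1 (0.848-fold) and MCL1 (0.847-fold) kept their directions with intervals clear of 1, whereas those of BAX (0.997 to 1.09), PMAIP1 (0.829 to 1.70) and BCL2L11 (0.855 to 1.22) held 1. BAX was 1.04-fold in G1 cells, a smaller difference than the 1.14-fold over all cells, which lies above the G1 interval. In G2M cells BBC3 was 0.630-fold (0.467 to 0.854), 1 of 10 members past 1.5-fold beside 7.67% of genes. In S cells it was 1.21-fold (0.817 to 1.82), from 35 UMIs in the 176 S cells grown alone. BID was lower in coculture in S cells (0.904-fold, 0.827 to 0.989) and G2M cells (0.838-fold, 0.767 to 0.915), and its interval in G1 cells held 1.

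Resistant cells with and without sensitive neighbours were closer to each other, with 0 of 10 members and 0.692% of 13155 genes past 1.5-fold. MCL1 was higher in coculture (1.17-fold, 1.14 to 1.20), as were BCL2L1 (1.07-fold) and BCL2L11 (1.18-fold, 1.08 to 1.29). BBC3 (0.845-fold, 0.795 to 0.898), BAX (0.893-fold), BAD (0.904-fold) and BID (0.930-fold) were lower. MCL1, BAX, BID, BAD and BBC3 each kept their side of 1, interval included, in G1, S and G2M cells. The share of all genes that did so was not counted, and these intervals cover counting error only. The interval of BCL2 held 1 (0.943 to 1.04). Survival members had a median log2 ratio of 0.10 and death members of -0.10, beside 0.03 over all genes.

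Between the monocultures 0 of 10 members were past 1.5-fold, whereas 19.2% of 12968 genes were. Resistant cells had more BCL2 (1.44-fold, 1.34 to 1.55) and BAX (1.36-fold, 1.32 to 1.39) and less MCL1 (0.696-fold, 0.674 to 0.718), BBC3 (0.741-fold, 0.693 to 0.792), BCL2L1 (0.757-fold, 0.729 to 0.787), BCL2L11 (0.802-fold) and BID (0.852-fold). In G1 cells MCL1 (0.702-fold) and BCL2 (1.39-fold) differed by about as much. PMAIP1 was 0.506-fold there (0.368 to 0.694), from 94 UMIs in sensitive and 74 in resistant cells. Its level is close to the added 1 CPM, and its log2 ratio of -0.44 was not past 1.5-fold. In S cells BBC3 ran the other way, 1.59-fold in resistant cells (1.13 to 2.30). In G2M cells BCL2 was the 1 member past 1.5-fold (1.58-fold, 1.23 to 2.06), beside 15.7% of genes. The log2 ratio of BCL2L1 was -0.39 over all cells but -0.039 in S and G2M cells together, and that of BAX was 0.43 and 0.23. In cells with a mitochondrial share under 15%, the log2 ratio of BBC3 was 0.060 and that of MCL1 -0.52. Lineage, fluorescent label and library cannot be told apart in this comparison.

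Inside the coculture both lineages shared 1 library, and 0 of 10 members were past 1.5-fold beside 6.12% of 12772 genes. BID was 0.764-fold in resistant cells (0.741 to 0.787), and lower by 0.36 to 0.41 on the log2 scale in each of the 3 phases. PMAIP1 (0.542-fold, 0.441 to 0.667) and BCL2L11 (0.826-fold, 0.736 to 0.928) were lower as well. In S cells PMAIP1 was the 1 member past 1.5-fold, at 0.428-fold (0.302 to 0.611), beside 7.19% of genes. Over all cells the intervals of BCL2, MCL1, BAK1 and BBC3 held 1, from 0.969 to 1.13 for BCL2 and from 0.938 to 1.01 for MCL1. In G2M cells BCL2 was 1.24-fold in resistant cells (1.06 to 1.45). In cells with a mitochondrial share under 15%, the log2 ratio of BID was -0.51 and that of BBC3 0.33. Of the coculture barcodes within the study's limits on genes, UMIs and mitochondrial share, 1263 had at least 2 Venus UMIs. These 1263, annotated or not, held 186 mCherry UMIs. Free RNA and droplets with cells of both lineages cannot be told apart as their source. Read as RNA of resistant cells, they make up 7.57% of the UMIs of these barcodes. With that share subtracted the log2 ratio of BID was -0.41, and that of BBC3 in sensitive cells was -0.73.

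**Figure D2:**
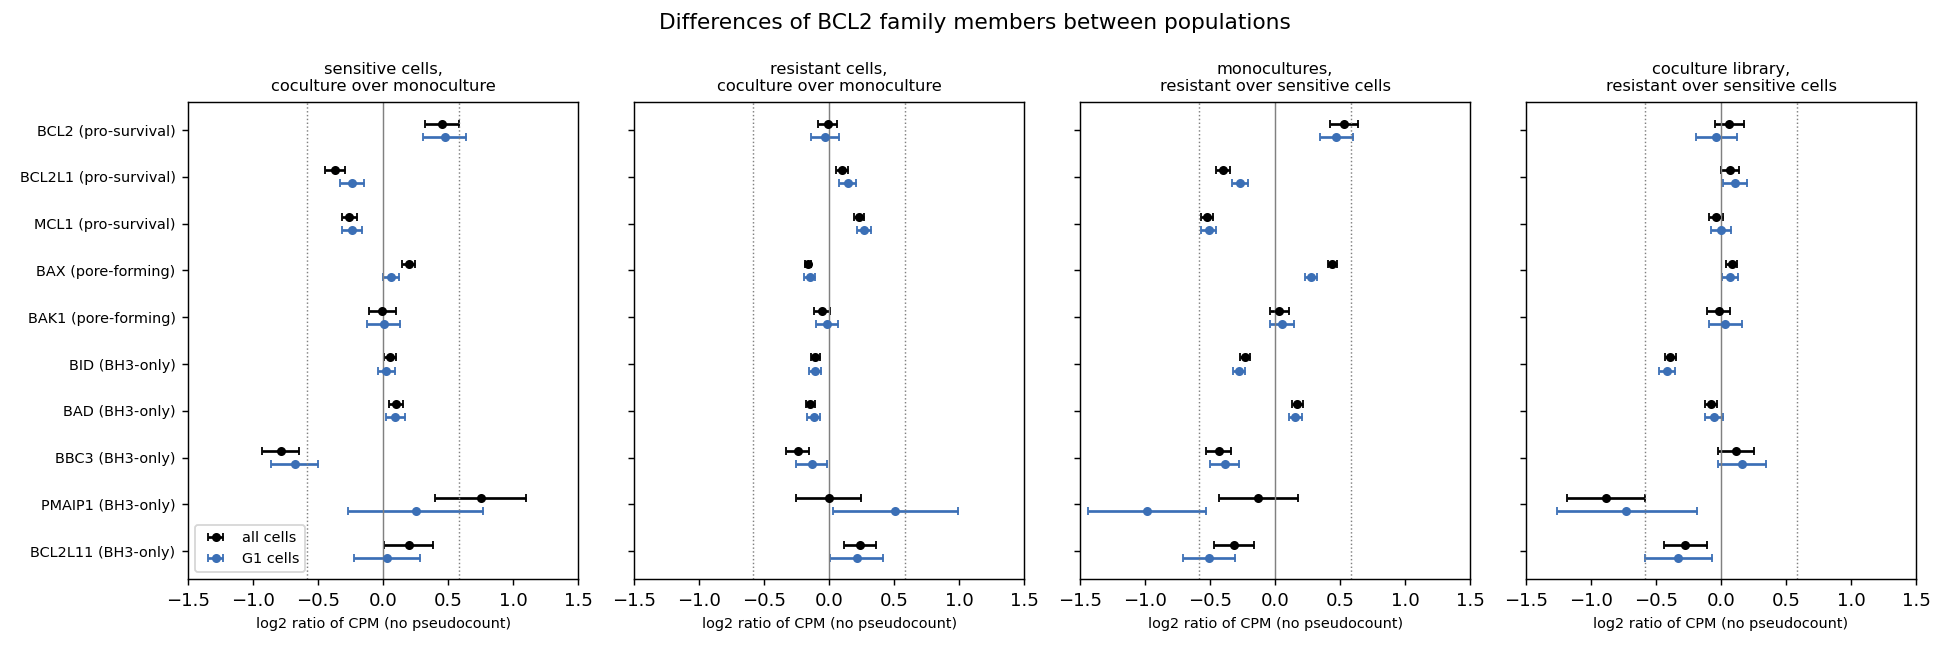
Log2 ratio of CPM, without an added 1, for each member in the 4 comparisons, in all cells (black) and G1 cells (blue), with counting intervals and dotted lines at 1.5-fold. BBC3 is past the line in sensitive cells (0.579-fold), and PMAIP1, the scarcest member, is past it there in all cells (1.68-fold), between the monocultures in G1 cells (0.506-fold), and in the coculture in all cells (0.542-fold) and G1 cells (0.603-fold).

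Survival and death members were then summed and set against each other, as UMIs of BCL2, BCL2L1 and MCL1 per UMI of the 7 death members. This ratio counts captured 3′ ends, follows the abundant members and is no measure of protein. It was 0.411 (0.402 to 0.421), 0.333 (0.324 to 0.343), 0.362 (0.356 to 0.368) and 0.299 (0.294 to 0.303), and none of the intervals overlapped. Sensitive cells were lower in coculture than alone by 0.30 on the log2 scale, and resistant cells were higher in coculture by 0.28. Resistant cells stood below sensitive cells when each grew alone (-0.46) and above them in the coculture (0.12, 0.07 to 0.17). BCL2 made up 8.50% of survival UMIs in sensitive cells grown alone and 13.6%, 14.0% and 15.7% in the other populations.

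The difference in sensitive cells was smaller within phases. In G1 cells the ratio was 0.438 alone and 0.385 in coculture, a log2 difference of -0.19 (-0.25 to -0.12). In S cells (0.281 and 0.288) and G2M cells (0.279 and 0.283) the intervals overlapped. The resistant difference was much the same in each phase, at 0.29 in G1, 0.27 in S and 0.25 in G2M cells. Between the monocultures the ratio differed by -0.34 in G1 cells, and the intervals held 0 in S cells (-0.12, -0.26 to 0.01) and G2M cells (-0.07, -0.20 to 0.07). When each member counted equally, as the mean log2 ratio of the survival members less that of the death members, the differences were -0.10 in sensitive cells, 0.17 in resistant cells, -0.092 between the monocultures and 0.18 in the coculture.

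**Figure D3:**
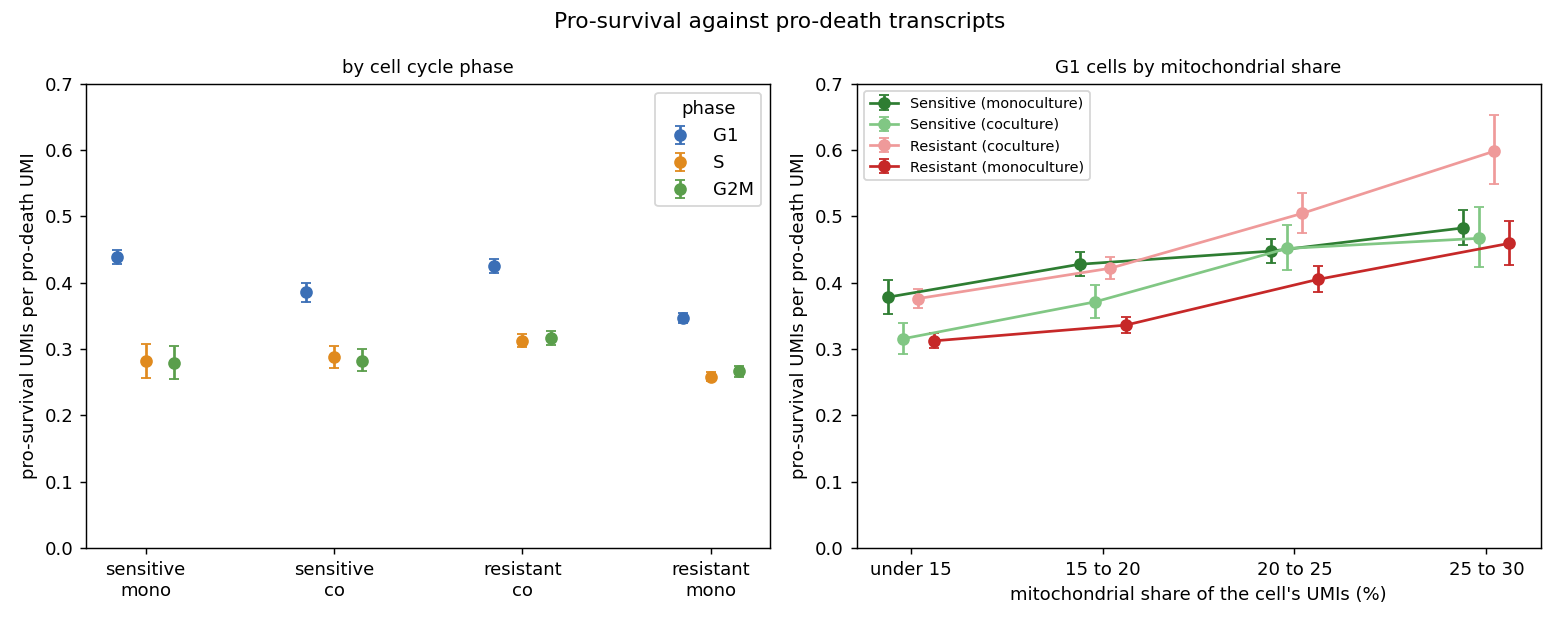
Survival UMIs per death UMI by population and phase (left), and for G1 cells by mitochondrial share (right), with 95% counting intervals. G1 cells have the highest ratio in each population (0.438, 0.385, 0.425 and 0.347), and the ratio is higher in the bin of highest mitochondrial share than in the lowest.

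Mitochondrial share moved with this ratio. In G1 cells with a share under 15% the ratio was 0.378, 0.316, 0.376 and 0.312, and in those from 25% to 30% it was 0.483, 0.467, 0.598 and 0.459. The sensitive difference in G1 cells was -0.26 under 15% and -0.21 from 15% to 20%, but 0.01 from 20% to 25% and -0.05 from 25% to 30%. The resistant difference was between 0.27 and 0.38 in each of these bins. Between the monocultures the G1 difference was -0.28 under 15% and -0.35 from 15% to 20%. It was -0.14 from 20% to 25% and -0.07 (-0.20 to 0.06) from 25% to 30%. Inside the coculture the G1 difference between the lineages was 0.16 to 0.36 over the bins. BBC3 was lower in sensitive cells of the coculture in all of the bins, by 0.40 to 0.81 on the log2 scale. The part of mitochondrial share in the differences between populations was not tested.

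Across the cell cycle, the ratio was lower outside G1 in all 4 populations, by 0.42 to 0.64 on the log2 scale in S cells and by 0.38 to 0.65 in G2M cells. BCL2L1 was lower in G2M than in G1 cells by 0.80, 0.61, 0.59 and 0.51, past 1.5-fold in all but the resistant monoculture. BAX was higher in S cells, by 0.46, 0.40, 0.36 and 0.39, and in G2M cells, by 0.47, 0.41, 0.43 and 0.47. BID was higher in both phases in every population, by 0.16 to 0.44. These 3 members had intervals clear of 1 in each of these cases.

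The scarcer members also differed by phase. BBC3 was lower in S than in G1 cells by 1.30, 0.45, 0.63 and 0.36, and past 1.5-fold in sensitive cells alone and resistant cells of the coculture. PMAIP1 was higher in S cells by 0.74, 0.90, 0.43 and 0.70 and in G2M cells by 0.57, 0.70, 0.51 and 0.94. Its fold reached 3.51 (2.61 to 4.76) in G2M cells of the resistant monoculture. BCL2L11 was higher in G2M cells by 0.55, 0.47, 0.51 and 0.51. MCL1 was lower in S cells by 0.13 to 0.30. As background, genes past 1.5-fold from G1 to S made up 13.7%, 7.77%, 5.62% and 5.56% of those tested, with 2, 1, 1 and 1 of the 10 members past it, and from G1 to G2M 18.1%, 8.91%, 7.05% and 7.07%, with 1, 2, 1 and 1. The authors called the phases from expression, and the phases are not independent samples.

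The stretches upstream of 4 genes that differed by phase are printed, BCL2L1 and BBC3 for lower levels in S cells, and BAX and PMAIP1 for higher levels. They are the bases before the annotated gene, 5′ to 3′ on the gene's strand, from RefSeq (GRCh38.p14), and each matched GRCh37 once. Capitals mark motif matches.

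BCL2L1: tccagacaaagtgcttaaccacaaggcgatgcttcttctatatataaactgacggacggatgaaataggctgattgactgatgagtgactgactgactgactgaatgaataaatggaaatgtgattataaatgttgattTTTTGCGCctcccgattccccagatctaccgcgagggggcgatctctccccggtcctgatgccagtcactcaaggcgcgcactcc
BBC3: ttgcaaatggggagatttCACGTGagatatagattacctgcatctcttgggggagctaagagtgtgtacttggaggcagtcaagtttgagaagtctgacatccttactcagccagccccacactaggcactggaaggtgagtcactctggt
BAX: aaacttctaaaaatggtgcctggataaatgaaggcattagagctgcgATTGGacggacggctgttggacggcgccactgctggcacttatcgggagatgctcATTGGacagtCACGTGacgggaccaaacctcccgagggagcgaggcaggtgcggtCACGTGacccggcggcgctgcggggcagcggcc
PMAIP1: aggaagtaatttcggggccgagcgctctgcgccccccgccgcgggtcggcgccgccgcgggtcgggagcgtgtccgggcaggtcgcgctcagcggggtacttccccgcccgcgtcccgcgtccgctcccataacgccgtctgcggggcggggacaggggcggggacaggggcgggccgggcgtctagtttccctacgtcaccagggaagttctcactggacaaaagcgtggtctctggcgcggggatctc

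In GRCh37 they lie at chr20:30311793-30312016 and chr19:47736024-47736174 on the minus strand, and at chr19:49457882-49458071 and chr18:57566978-57567227 on the plus strand. Both strands were searched for 4 motifs, the E2F-like TTTNNCGC, the CCAAT box, the cell cycle element TTTGAA and the E-box CACGTG. BCL2L1 held 1 match to the E2F-like motif, and 5.36% of 35116 RefSeq promoters over the same window held at least 1. BBC3 held 1 E-box, and 3.01% of promoters over its window held at least 1. BAX held 2 E-boxes and 2 CCAAT boxes, which lie on the other strand and read ATTGG in the printed sequence. At least 1 E-box was in 4.13% of promoters over that window and at least 1 CCAAT box in 25.8%, and the share with 2 was not counted. PMAIP1, with 72.8% G and C, held none of these letters. A match describes the sequence and is not evidence of binding.

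The clusters that came with the data placed the BBC3 of sensitive cells grown alone unevenly. They were made from these same cells and are given as a description. Cluster 8, with 681 such cells, had BBC3 at 33.1 CPM (30.2 to 36.1), and cluster 4, with 1945, had 9.60 CPM. Cluster 8 also had more MCL1 (80.9 against 56.1 CPM), less BAX (64.4 against 81.1 CPM) and a survival to death ratio of 0.560 against 0.410. It held 15.6% of the UMIs of sensitive cells grown alone and 37.9% of their BBC3 UMIs. Cluster 12, with 156 cells, also had more BBC3 than cluster 4, at 18.7 CPM, and had BCL2L1 at 67.8 CPM and BCL2 at 5.14 CPM. Sensitive cells of the coculture were mostly in cluster 3 (1087 cells, BBC3 at 6.95 CPM) and cluster 7 (617 cells, 6.65 CPM). The sensitive cells grown alone in these clusters had BBC3 at 13.0 CPM (cluster 3, 267 cells) and 6.49 CPM (cluster 7, 232 cells).

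Without the cells of cluster 8, a choice made after seeing the data, BBC3 was at 10.0 CPM alone and 7.46 CPM in coculture, 0.745-fold (0.666 to 0.832), and 0 of 10 members were past 1.5-fold, beside 9.39% of 12233 genes. In G1 cells without cluster 8, BBC3 was 0.793-fold (0.690 to 0.910), against 0.624-fold with it. The ratio of survival to death UMIs over all cells without cluster 8 differed by -0.23. In resistant cells BBC3 was highest in cluster 13, at 22.9 CPM in coculture (55 cells) and 21.2 CPM alone (51 cells).

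**Figure D4:**
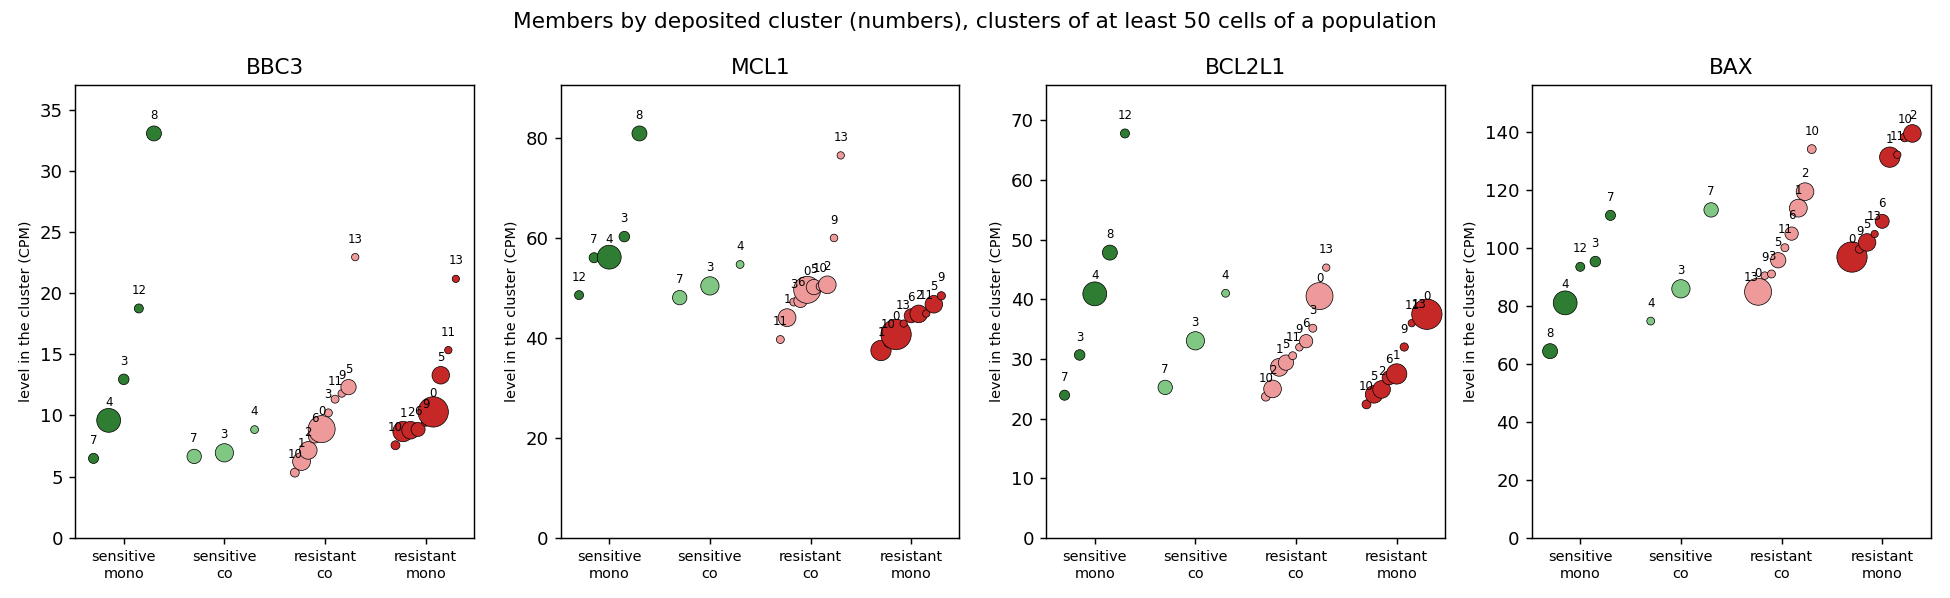
BBC3, MCL1, BCL2L1 and BAX by deposited cluster in each population (CPM), for clusters of at least 50 cells, with point area following the number of cells. BBC3 and MCL1 are highest in cluster 8 of the sensitive monoculture, at 33.1 and 80.9 CPM.

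Barcodes that the annotation left out for a mitochondrial share of 30% or more showed the same members at other levels, read here per 1000000 UMIs that are not mitochondrial. In the sensitive library MCL1 was at 75.4 in annotated cells, 115.4 in barcodes from 30% to 50% and 165.8 at 50% or more, while BAX was at 103.9, 68.1 and 47.1. BCL2L1 there was at 51.3, 85.7 and 117.9, and BAD at 77.1, 56.6 and 35.3. The mixed library had MCL1 at 58.9, 111.3 and 146.8 and BAX at 118.2, 77.7 and 62.6. The resistant library had MCL1 at 49.9, 90.4 and 113.9 and BAX at 133.9, 85.1 and 62.6. In all 3 libraries BCL2, BCL2L1, MCL1, BAK1, BBC3 and BCL2L11 were higher, and BAX and BAD lower, with each step in mitochondrial share. Of 12117 genes, 54.4% were higher and 14.6% lower at each step in all 3 libraries, so 6 and 2 of 10 members are near the shares of all genes. Survival UMIs per death UMI went from 0.411 through 0.795 to 1.35 in the sensitive library, from 0.354 to 1.10 in the mixed library and from 0.299 to 1.05 in the resistant library.

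**Figure D5:**
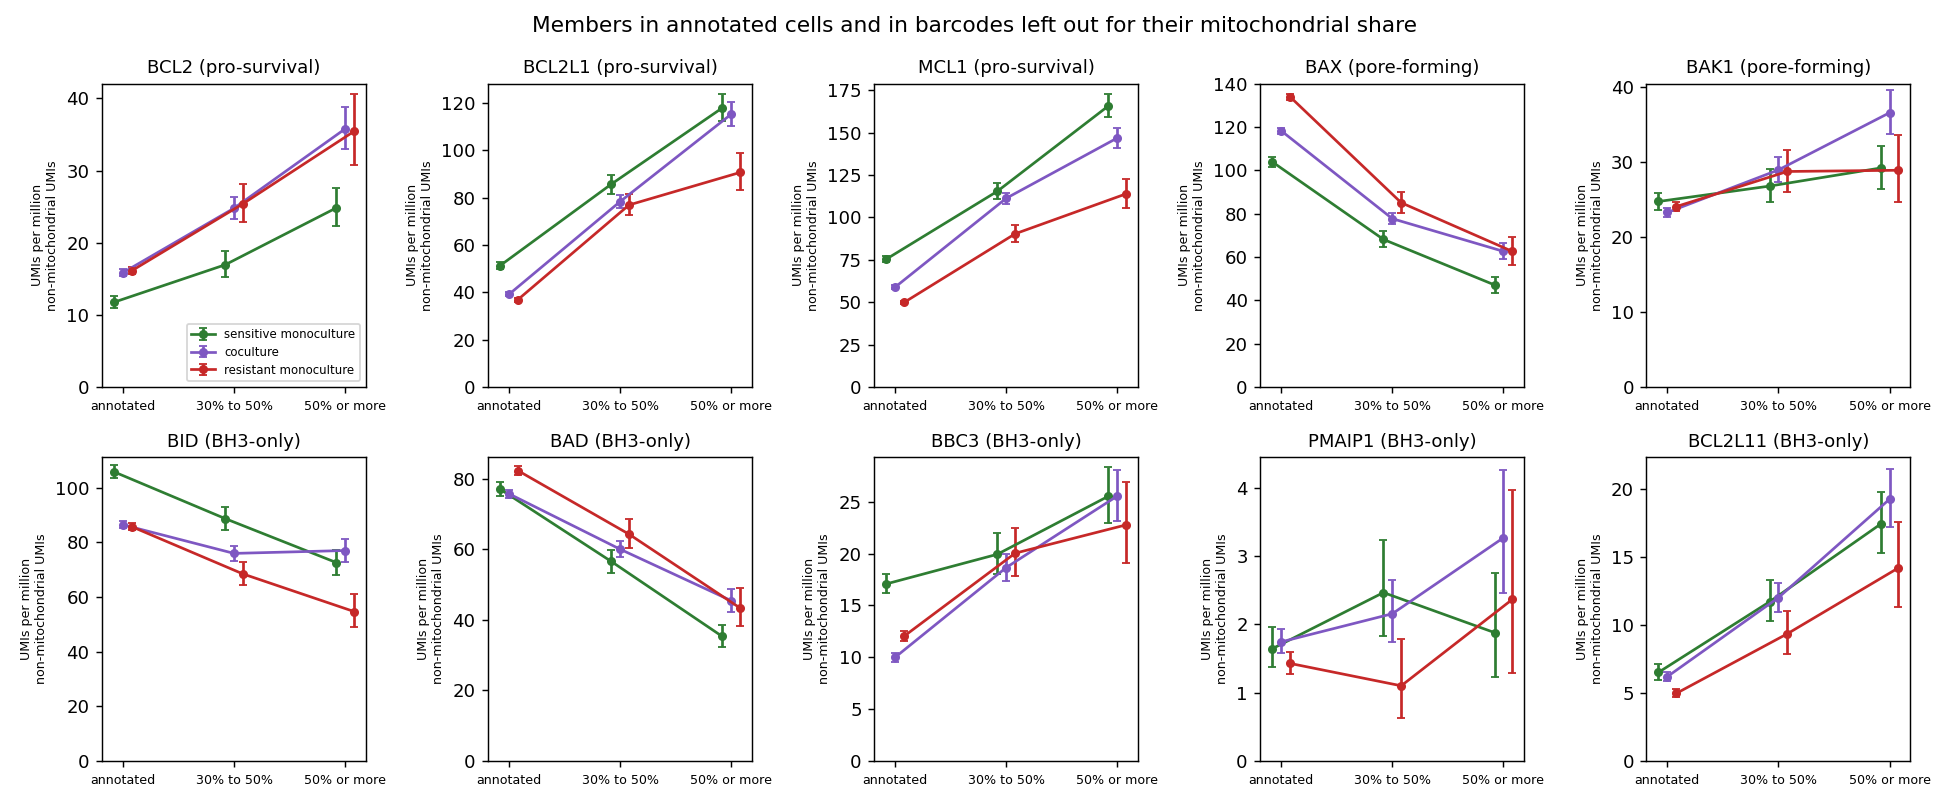
Each member per 1000000 non-mitochondrial UMIs, with counting intervals, in annotated cells and in barcodes left out at 30% to 50% and at 50% or more mitochondrial UMIs, by library. MCL1 is higher and BAX lower at each step in all 3 libraries, for example 75.4 to 165.8 and 103.9 to 47.1 in the sensitive library.

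The share of cells with at least 1 UMI gave the same order for BBC3 at equal depth. After each cell was thinned to 5000 UMIs, which every cell reached, BBC3 was seen in 6.97%, 4.27%, 4.61% and 5.35% of cells (29.0%, 21.5%, 22.2% and 28.1% unthinned). BCL2 was seen in 4.24%, 6.02%, 6.17% and 6.31% (21.1%, 31.7%, 30.8% and 33.8% unthinned), and BAX in 31.9%, 38.0%, 37.0% and 41.6% (84.4%, 92.1%, 91.0% and 94.2% unthinned). No population here should lack these genes, so no share of cells can serve as their background. The 7.57% given for the coculture is a share of UMIs.

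Other genes of cell death were read as lists. In sensitive cells 3 of 10 further BCL2 family genes with enough UMIs were lower in coculture past 1.5-fold, with a list median of -0.25 beside -0.05 over all genes, of which 5.91% were lower past that fold. They were the BH3-only gene BIK (23.9 CPM alone and 13.5 CPM in coculture), BNIP3L, which marks mitochondria for removal (50.7 and 32.4 CPM), and the survival gene BCL2L2 (4.09 and 2.21 CPM). None of 18 caspase activation genes (median -0.10) and none of 9 death receptor genes (median -0.24) was past 1.5-fold. Of 17 p53 targets 2 were lower (median -0.14): CDKN1A, an inhibitor of cyclin-dependent kinases, at 23.6 and 13.5 CPM, and the antiproliferative gene BTG2, at 13.0 and 7.83 CPM. In G1 cells 1 of 17 was lower, near the 5.07% of all genes lower there. None of the 10 members, BBC3 included, is in the p53 list. None of 9 regulators was past 1.5-fold, and E2F1, which drives entry into S phase, was at 19.1 CPM alone and 27.1 CPM in coculture.

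In resistant cells 2 of 17 p53 targets were higher in coculture past 1.5-fold, beside 0.661% of all genes. They were CDKN1A (9.15 CPM alone and 15.2 CPM in coculture) and ZMAT3. Most of that list went the other way, with 11 of 17 below 0 and a median of -0.03, beside 0.03 over all genes. None of the further BCL2 family, caspase, death receptor or regulator genes was past 1.5-fold. Between the monocultures 7 of 17 p53 targets were lower in resistant cells and 2 higher, beside 12.5% and 6.65% of all genes. The lower ones numbered 6 of 17 in G1 cells (13.2% of all genes), 2 in S cells (10.2%) and 2 in G2M cells (9.57%). Of the further BCL2 family genes, 2 of 10 were higher there and 1 was lower. Of 9 regulators 1 was higher (E2F1, 2.05-fold) and 1 lower (STAT3, 0.599-fold). Among 18 caspase activation genes 1 was lower, and none of 8 death receptor genes was past 1.5-fold.

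Likeness of pattern was measured as Pearson's r over the 12 combinations of population and phase, among 4679 genes. The nearest genes were CTNNBL1 for BCL2 (0.945), BCAS1 for BCL2L1 (0.985), SKIL for MCL1 (0.981), ACAT2 for BAX (0.978) and RPS19BP1 for BID (0.994). They were ADD1 for BBC3 (0.912), SRSF4 for PMAIP1 (0.963) and INIP for BCL2L11 (0.974). For BAK1 (PLIN3, ILRUN and BET1) and BAD (RPS6KB2, GTPBP3 and SPNS1) the 3 nearest genes reached 0.897 to 0.904. The 12 profiles share libraries and depth, so these values describe them and carry no test.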

How the data were processed

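Single cells of 3 spheroid libraries were profiled by droplet 3′ RNA-seq. The authors deposited UMI counts per gene and barcode, made with Cell Ranger 3.0.2 and GRCh37 per the labels, and a cell annotation in which the authors give phase, lineage, cluster and mitochondrial percent. Rows without a symbol (0.523% to 0.591% of UMIs) and 10 further annotation columns were not used. The study states doublet removal and at least 2 transgene UMIs per cell, but 1314 of 3329 sensitive monoculture cells and 1127 of 2059 sensitive coculture cells reach that number. All annotated coculture cells had at least 1 UMI of their own transgene, against 2258 of 3329 sensitive and 5507 of 7557 resistant monoculture cells. The comparisons of coculture with monoculture therefore set cells that all had such a UMI against cells of which some had none. With only sensitive monoculture cells that had at least 1 Venus UMI, 1 member was again past 1.5-fold, beside 11% of genes. No doublet caller was run here.

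UMIs were summed per population and phase and divided by population totals. Genes with at least 50 UMIs over both populations were compared as log2 ratios of CPM plus a pseudocount of 1. With 1 library per condition no test was made, and intervals cover counting error only. edgeR 4.0.16 gave TMM factors for 1 alternative, with Python 3.11.15, numpy 2.4.6, scipy 1.17.1, pandas 2.3.3 and R 4.3.3. Calculations were tested on simulated data. The text names all 10 members, for each further list genes taken from the 3 with the largest change in cocultured sensitive cells, and genes most like each member. GATA3, PTPRC, CD3E, COL1A2 and KRT5, from the marker lists, and ZMAT3 were named outside this rule after their values were seen. Members and lists were chosen with earlier results of these data known. Coordinates are from GENCODE on GRCh37. Alternatives changed phase, transgene UMIs, mitochondrial share, depth, pseudocount, scaling and free RNA.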

Additional observations from a re-analysis of the deposited data

Results flagged for a closer look

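For 5 members, with intervals clear of 1 in both lineages, the coculture difference ran in opposite directions in the sensitive and resistant cells. The difference between the lineages was not tested. How many of all genes ran in opposite directions was not counted, so these 5 have no background to be read against. BCL2L1 was lower in cocultured sensitive cells by 0.36 and higher in resistant cells by 0.10 on the log2 scale, a gap of -0.46. MCL1 was at -0.26 and 0.22, a gap of -0.48. BAX was at 0.19 and -0.16, a gap of 0.35. BID was at 0.05 and -0.10, a gap of 0.16. BAD was at 0.10 and -0.14, a gap of 0.24. In S and G2M cells together BID (-0.20) and BAD (-0.047) were lower in cocultured sensitive cells too, the direction of the resistant cells, and BAX in sensitive cells was at 0.0010. BCL2L1 and MCL1 in sensitive cells were closer to level there, at -0.062 and -0.14.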

How the results depend on the processing

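The survival ratio in sensitive cells, at -0.30, was -0.19 in G1 cells, 0.026 in S and G2M cells together, where the direction reversed, -0.22 below 15% mitochondrial share, -0.39 thinned, -0.10 as a mean of log2 values, and -0.16 with phases weighted and -0.23 without cluster 8, both chosen after seeing the data, as was the alternative that kept monoculture cells with at least 1 Venus UMI. Members past 1.5-fold there numbered 1 (11% of all genes), but 0 in S and G2M cells (6.27%), below 15% (9.43%), with a pseudocount of 10 (3.21%) and without cluster 8 (9.39%), and 2 with at least 2 transgene UMIs (12.6%) and with a pseudocount of 0.1 (17%). In resistant cells the ratio, at 0.28, was 0.22 thinned and up to 40000 UMIs, 0.20 without MCL1 and 0.17 as a mean. Between monocultures, at -0.46, it was -0.34 in G1, -0.10 in S and G2M, -0.32 below 15%, -0.50 thinned, -0.28 without MCL1 and -0.092 as a mean, and TMM gave 1 member past 1.5-fold (18.4% of all genes) in place of 0 (19.2%). In the coculture library, at 0.12, it was 0.17 without MCL1 and 0.18 as a mean, and 1 member in place of 0 (6.12% of all genes) was past 1.5-fold in S and G2M cells (6.2%), below 15% (7.17%), thinned (7.8%), at a pseudocount of 0.1 (11.7%) and with mitochondrial and ribosomal genes left out of the total (7.51%). BID in sensitive cells turned to -0.20 in S and G2M cells, -0.044 below 15% and -0.013 weighted, BAD to -0.047 in S and G2M cells, and BBC3 between monocultures to 0.15 in S and G2M cells and 0.060 below 15%. The cause was not tested. Of 450 values of single members under the alternatives, 27 had the opposite sign: these 6, whose interval as reported was clear of 1, and 21 whose interval as reported held 1. No paired analysis was possible because each condition is 1 library. PMAIP1, with 844 UMIs in all, is limited by depth.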
